A study of Homo sapiens with 4 samples.

Results

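Integrins are the receptors by which a cell holds its matrix, and laminins and collagens are the proteins of that matrix that they hold. The genes described here are the 78 protein-coding genes of these 3 families found by symbol among the 28729 genes of an RNA-seq table from TU-177, an established human line of laryngeal squamous cell carcinoma (LSCC). They were 24 integrin subunits, 12 laminin chains and 42 collagen chains. ITGA8, COL19A1 and COL6A5 belong to the same families and were not analysed here.

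All cells were TU-177 transduced with a lentivirus and selected with puromycin. The sh_NC group carried a negative-control short hairpin RNA and the sh_SKA3 group a hairpin against SKA3, a subunit of the SKA complex that holds spindle microtubules at the kinetochore. Each group had 2 libraries, and the labels do not say whether these came from separate cultures, which hairpin was used or how long after selection the cells were taken. P-values therefore measure the spread between these libraries, which may be technical. The comparison asks which genes of the cell-matrix interface differed in level when SKA3 was silenced.

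Levels were deposited as FPKM, in which the fragments of a gene are divided by its exon length and the size of the library, so they can be compared between genes. Differences were tested by limma on log2(FPKM + 1) in the 12645 genes whose FPKM averaged 1 or more, and a gene was called past an adjusted p of 0.05. Differences are given as sh_SKA3 minus sh_NC on that scale, which understates the change of low genes. Whole reads could be recovered from the FPKM steps, and they summed to between 9859279 and 13225181 per library. Replicates of a group differed by more than counting noise, with chi-square values per degree of freedom of 3.50 in sh_NC and 3.42 in sh_SKA3. SKA3 stood at 9.40 and 9.64 FPKM in sh_NC and at 3.77 and 4.12 FPKM in sh_SKA3, a difference of -1.09 ± 0.07 (SE, limma adjusted p = 0.00806).

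The markers of the labelled cell type were uneven. Of 12 squamous epithelial markers in the table, 5 reached a mean of 1 FPKM. SFN averaged 146 FPKM and KRT17 stood between 29.4 and 49.1 FPKM, whereas KRT5, KRT14 and KRT6A, keratins of basal and activated squamous cells, did not pass 0.103 FPKM in any library. TP63 stood between 0.348 and 0.580 FPKM and CDH1, the gene of E-cadherin, between 0.149 and 0.447 FPKM. KRT17 was called lower in sh_SKA3 (-0.53 ± 0.11, limma adjusted p = 0.0396).

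Integrins are pairs of an alpha and a beta subunit, and the pair decides the ligand. ITGB1 pairs with most alpha subunits, ITGB4 with ITGA6 alone. Laminins are trimers of an alpha, a beta and a gamma chain in the basement membrane under an epithelium. Type IV collagen forms the net of that membrane, type VII collagen anchors it to the tissue below, and hemidesmosomes tie it to keratin filaments through the ITGA6-ITGB4 receptor, the transmembrane collagen COL17A1 and a laminin. Fibril-forming collagens such as types I, III and V lie in the stroma.

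Of the 78 genes, 35 averaged 1 FPKM or more and were tested, 12 integrins, 7 laminins and 16 collagens. Each of the tested genes rested on between 58 and 18310 reads in a library. Of the remaining 43 genes, 14 had a mean between 0.1 and 1 FPKM and 29 a lower one. ITGA4, COL6A3, COL9A1, COL22A1 and COL23A1 were listed at 0 in all 4 libraries. In these bulk libraries fewer cells of one kind and less RNA per cell cannot be told apart.

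**Figure D1:**
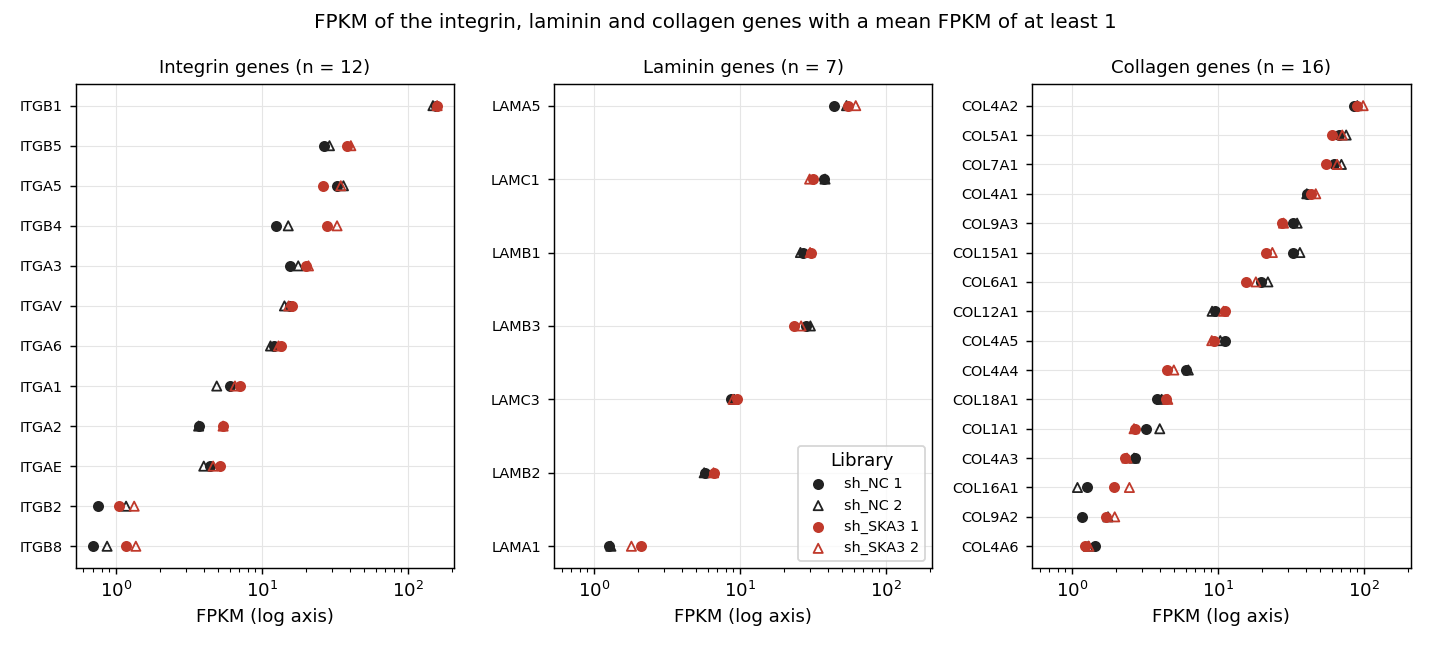
FPKM of each of the 35 tested genes in each library (log axis), by family, ordered by mean level. Filled circles are replicate 1 and open triangles replicate 2, black for sh_NC and red for sh_SKA3. ITGB4, ITGB5 and ITGA2 show the red symbols to the right of the black ones, and COL15A1 and LAMC1 show them to the left.

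A few genes held most of each family's signal. ITGB1 averaged 155 FPKM, 50.4% of the summed FPKM of the 24 integrins. LAMA5 averaged 53.7 FPKM, or 33.2% of the laminins, and COL4A2 averaged 90.9 FPKM, or 23.5% of the collagens. The 3 highest genes of each family together held 71.8% of the integrin, 72.1% of the laminin and 57.5% of the collagen signal.

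Of the 35 tested genes, 5 were called. ITGB4, ITGB5 and ITGA2 rose in sh_SKA3, and COL15A1 and LAMC1 fell. This was 14.3% of the tested members, where 12.3% of all genes tested were called. By direction, 8.57% rose against 6.16% of all genes tested, and 5.71% fell against 6.11% of them. The share of members called was thus near that of all genes. The median difference was 0.14 over the members and 0.01 over all genes. The median over the members was 0.06 among those with a mean FPKM of at least 5, 0.07 with a correction for GC content and exon length and 0.09 without sh_SKA3 2.

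Without a test, 17 members had both sh_SKA3 libraries above both sh_NC libraries, or 48.6%, where 32.3% of all genes tested did. In 9 members both sh_SKA3 libraries were the lower ones, or 25.7%, beside 29.2% of all genes. The other 9 overlapped. By family, 11 of 12 integrins had a difference above 0, with a median of 0.22, as did 5 of 7 laminins, with a median of 0.18, and 6 of 16 collagens, with a median of -0.13. Of all genes tested, 6520 of 12645 were above 0. Whether the families differ from each other was not tested. The collagen median was -0.03 without sh_SKA3 1 and -0.08 without sh_NC 2, and with the GC and length correction the collagen median was -0.20 and the laminin median 0.08.

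**Figure D2:**
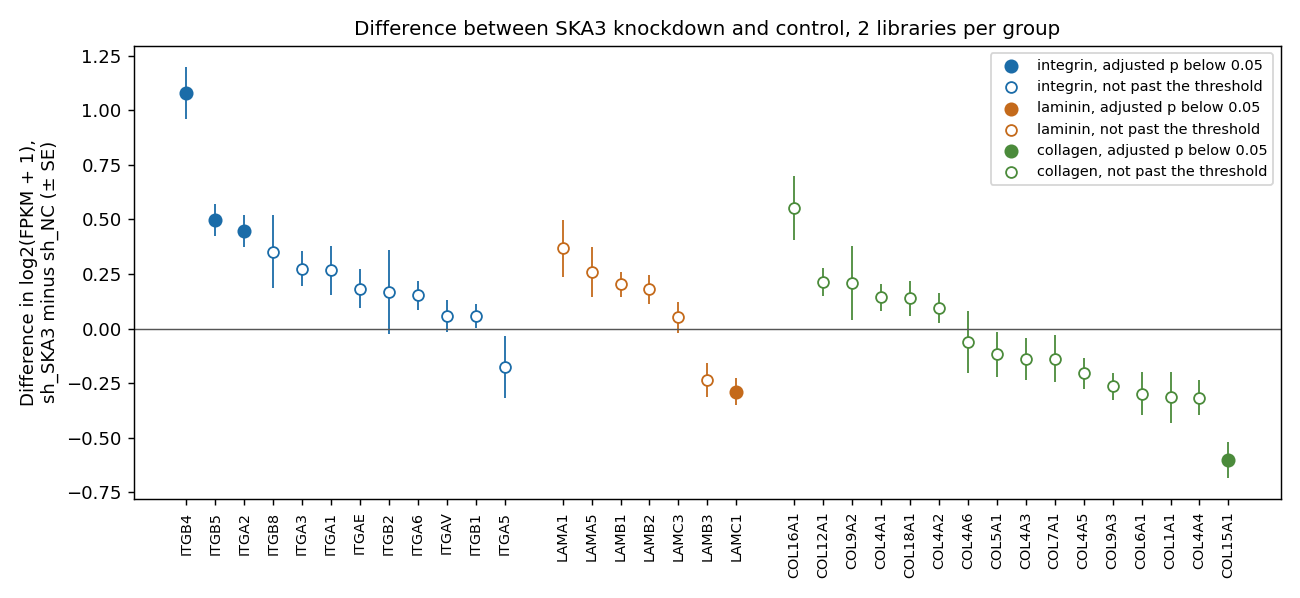
Difference in log2(FPKM + 1) between sh_SKA3 and sh_NC for the 35 tested genes, with bars of 1 standard error from limma and 2 libraries per group. Filled points passed an adjusted p of 0.05. ITGB4 is the highest point at 1.08 and COL15A1 the lowest at -0.60.

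Among the laminin-binding integrins, ITGB4 showed the largest difference of all 35 tested members. It is the subunit with the long cytoplasmic tail that binds plectin in the hemidesmosome. Its level was 12.5 and 15.1 FPKM in sh_NC and 28.0 and 32.7 FPKM in sh_SKA3, counted on 1014, 923, 1927 and 2607 reads. Both knockdown libraries were well above both control libraries, and the means were 13.8 ± 1.85 and 30.3 ± 3.32 FPKM (SD, n = 2). The difference was 1.08 ± 0.12 (SE, limma adjusted p = 0.0140).

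ITGA6, the only alpha partner of ITGB4, was not called. It stood at 12.1 and 11.4 FPKM in sh_NC and at 13.4 and 13.0 FPKM in sh_SKA3 (0.15 ± 0.07, limma adjusted p = 0.191). The ratio of ITGB4 to ITGA6 was 1.03 and 1.32 in sh_NC and 2.09 and 2.52 in sh_SKA3. The beta transcript was the higher of the pair in every library. With 2 libraries against 2, an exact permutation test of such a ratio cannot go below a two-sided p of 0.333, so ratios are given without a test.

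ITGA3, the alpha subunit of the main laminin receptor outside hemidesmosomes, stood at 15.7 and 17.7 FPKM in sh_NC and at 19.9 and 20.8 FPKM in sh_SKA3. The groups did not overlap, and the difference did not pass (0.27 ± 0.08, limma adjusted p = 0.0921). ITGA7, a laminin receptor of muscle, averaged 0.183 FPKM.

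ITGA2 and ITGA1 are alpha subunits that bind collagen together with ITGB1. ITGA2 rose, from 3.73 and 3.69 FPKM in sh_NC to 5.42 FPKM in each sh_SKA3 library (0.45 ± 0.07, limma adjusted p = 0.0278). Its reads were 353, 263, 436 and 506, and the replicates of each group lay closer together than those of any of the other called genes. ITGA1 stood at 6.09 and 4.91 FPKM in sh_NC and at 7.03 and 6.54 FPKM in sh_SKA3 (0.27 ± 0.11, limma adjusted p = 0.178). ITGA10 and ITGA11, the other collagen-binding subunits, had at most 2 reads in any library. Summed over the 4 genes, the level was 9.82 and 8.63 FPKM in sh_NC and 12.4 and 12.0 FPKM in sh_SKA3.

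The start of ITGA2 is shown because it is the called collagen receptor, on chromosome 5 from 52989102 to 52989351 in GRCh38 (plus strand). The letters are the 250 bases before the RefSeq start, with capitals for every GC box, GGGCGG, read on either strand.
ITGA2: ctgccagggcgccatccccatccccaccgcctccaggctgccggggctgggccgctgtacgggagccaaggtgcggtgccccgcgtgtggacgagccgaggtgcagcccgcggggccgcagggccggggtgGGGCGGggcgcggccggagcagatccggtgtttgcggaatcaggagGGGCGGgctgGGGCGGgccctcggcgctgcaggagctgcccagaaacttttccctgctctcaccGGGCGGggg
It held 4 GC boxes, a motif found in 42.6% of the 35116 RefSeq starts over the same 250 bases and in 53.3% of the 75 starts of family members in that table. CCAAT (32.0% of starts) and TGANTCA, the AP-1 motif (6.57%), were searched on both strands and are not in these letters.

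Among the integrins that bind the RGD sequence of fibronectin and vitronectin are those with ITGAV or ITGA5. ITGB5, which pairs with ITGAV as a vitronectin receptor, rose. It stood at 26.4 and 29 FPKM in sh_NC and at 38.5 and 40.6 FPKM in sh_SKA3 (0.50 ± 0.07, limma adjusted p = 0.0220). The groups were apart by more than the spread within either.

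ITGAV itself was level, at 15.6 and 14.3 FPKM in sh_NC and 16.0 and 15.3 FPKM in sh_SKA3 (0.06 ± 0.07, limma adjusted p = 0.627). The ratio of ITGB5 to ITGAV was 1.69 and 2.03 in sh_NC and 2.41 and 2.66 in sh_SKA3. Besides ITGB1, described next, ITGAV has 3 more beta partners among the members, all far lower than ITGB5. ITGB8 stood at 0.695 and 0.871 FPKM in sh_NC and 1.18 and 1.37 FPKM in sh_SKA3 (0.35 ± 0.17, limma adjusted p = 0.222). ITGB3 averaged 0.0841 FPKM and ITGB6, the epithelial partner, 0.0539 FPKM.

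ITGB1 was the highest member of all and hardly moved. Its level was 156 and 148 FPKM in sh_NC and 158 FPKM in both sh_SKA3 libraries (0.06 ± 0.05, limma adjusted p = 0.510). ITGA5, the alpha subunit of the fibronectin receptor, stood at 32.5 and 36.2 FPKM in sh_NC and at 26.3 and 34.7 FPKM in sh_SKA3 (-0.18 ± 0.14, limma adjusted p = 0.448). It was the only tested integrin with a difference below 0, and its groups overlapped. Summed over the beta subunits other than ITGB1, the level was 40.7 and 46.4 FPKM in sh_NC and 68.9 and 76.3 FPKM in sh_SKA3. The called genes ITGB4 and ITGB5 made up nearly all of this sum. The alpha subunits summed to 90.8 and 93.2 FPKM in sh_NC and 93.8 and 101 FPKM in sh_SKA3.

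Leukocyte integrins were low. ITGAE averaged 4.54 FPKM and ITGB2 1.08 FPKM, and neither was called. ITGAL, ITGAM, ITGAX and ITGB7 had no library above 0.149 FPKM, and ITGA2B, the platelet subunit, averaged 0.503 FPKM. Of the 7 leukocyte markers in the table none reached a mean of 1 FPKM, and LYZ was at 0 in all libraries.

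Averaged over the 4 libraries, the chains of laminin-511 were the highest alpha, beta and gamma chains, although LAMB3 was above LAMB1 in sh_NC. LAMA5, the alpha chain of laminin-511 and laminin-521, stood at 44.1 and 53.6 FPKM in sh_NC and at 55.0 and 62.0 FPKM in sh_SKA3 (0.26 ± 0.11, limma adjusted p = 0.20). LAMB1 stood at 26.8 and 25.9 FPKM in sh_NC and at 30.9 and 30.2 FPKM in sh_SKA3 (0.20 ± 0.06, limma adjusted p = 0.0846). In neither chain did the groups overlap, and neither passed the threshold.

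LAMC1, the gamma chain that both laminins share, fell. It stood at 37.5 and 38.2 FPKM in sh_NC and at 31.7 and 29.98 FPKM in sh_SKA3 (-0.29 ± 0.06, limma adjusted p = 0.0432). Its partners LAMA5 and LAMB1 had differences above 0. The ratio of LAMB1 to LAMC1 was 0.716 and 0.679 in sh_NC and 0.974 and 1.01 in sh_SKA3, and that of LAMA5 to LAMC1 was 1.18 and 1.40 in sh_NC and 1.73 and 2.07 in sh_SKA3. LAMB2, the alternative beta chain, averaged 6.18 FPKM and LAMC3 9.05 FPKM, with differences of 0.18 and 0.05 that were not called. LAMA1 stood at 1.26 and 1.31 FPKM in sh_NC and 2.1 and 1.81 FPKM in sh_SKA3 (0.37 ± 0.13, limma adjusted p = 0.135).

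The stretch before the LAMC1 start is shown as that of the called laminin, on chromosome 1 from 183023170 to 183023419 in GRCh38 (plus strand). GC boxes are again in capitals.
LAMC1: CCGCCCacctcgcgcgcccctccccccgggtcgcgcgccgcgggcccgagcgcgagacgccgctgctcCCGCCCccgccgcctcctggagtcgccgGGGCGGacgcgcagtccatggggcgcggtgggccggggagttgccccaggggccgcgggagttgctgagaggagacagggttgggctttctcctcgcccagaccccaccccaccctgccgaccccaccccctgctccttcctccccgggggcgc
It held 3 GC boxes, 2 of them on the minus strand, and neither of the other motifs.

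LAMA3 and LAMB3, chains of the hemidesmosome laminin, were at very unequal levels. LAMB3 stood at 28.5 and 30.3 FPKM in sh_NC and at 23.6 and 26.2 FPKM in sh_SKA3 (-0.23 ± 0.08, limma adjusted p = 0.114). LAMA3 averaged 0.797 FPKM. It stood at 0.958 and 0.952 FPKM in sh_NC and at 0.545 and 0.734 FPKM in sh_SKA3, on 155, 116, 75 and 117 reads. LAMA4, an alpha chain of vessel walls and stroma, had 1, 3, 11 and 15 reads in the 4 libraries, so that its FPKM did not pass 0.110.

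**Figure D3:**
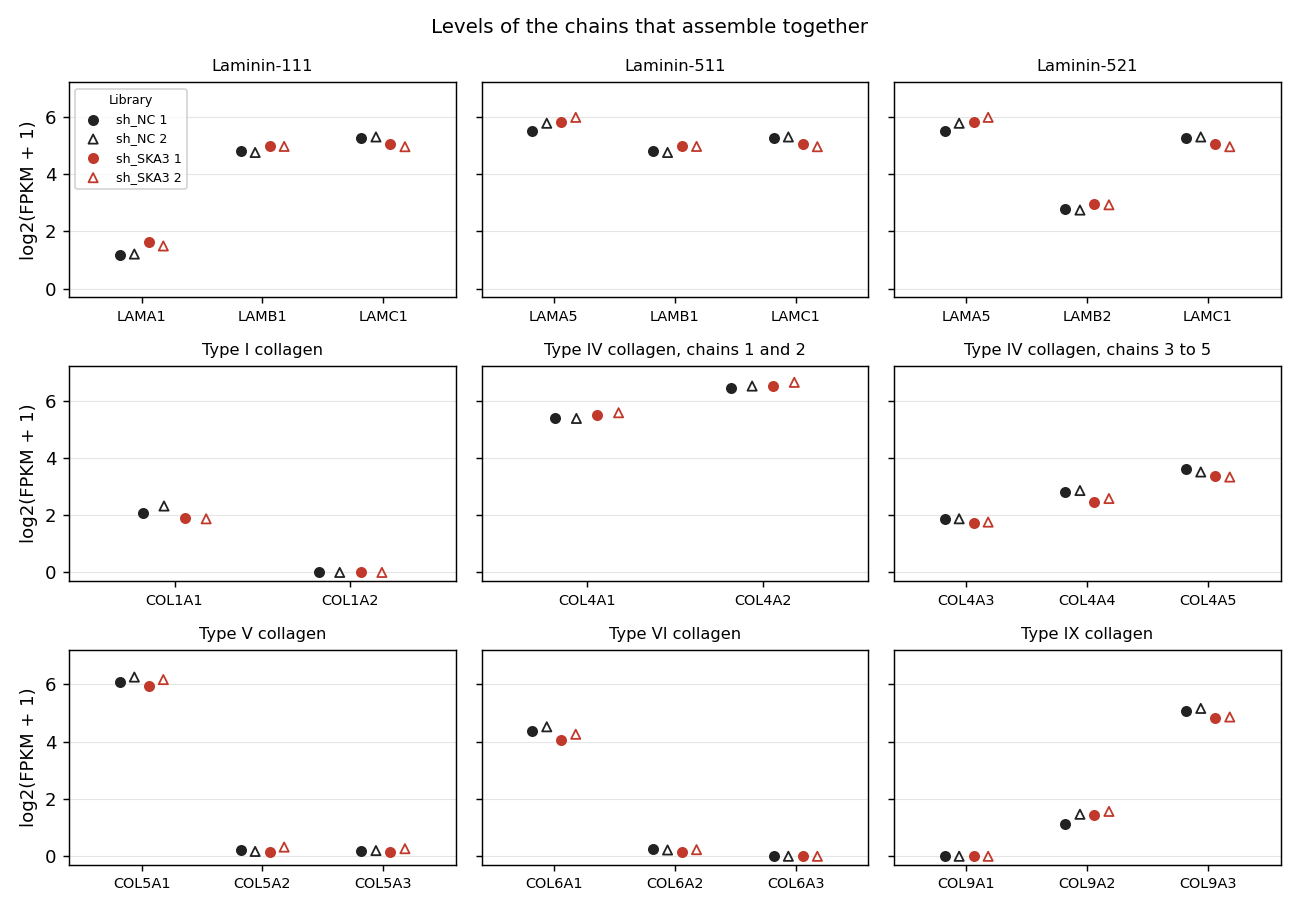
log2(FPKM + 1) of the chains that assemble into 9 laminin and collagen molecules, by library, with sh_NC in black and sh_SKA3 in red. In collagens V and VI a single chain is high and its partners lie near 0, whereas the 3 laminins and type IV collagen have all their chains above 1 FPKM.

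The type IV collagens are 6 genes in 3 head-to-head pairs, and all 6 were tested. COL4A1 and COL4A2, which form the common trimer of basement membranes, averaged 42.9 and 90.9 FPKM. COL4A1 stood at 40.9 and 40.5 FPKM in sh_NC and at 43.6 and 46.6 FPKM in sh_SKA3 (0.14 ± 0.06, limma adjusted p = 0.187). COL4A2 stood at 85.8 and 89.8 FPKM in sh_NC and at 89.4 and 98.4 FPKM in sh_SKA3 (0.09 ± 0.07, limma adjusted p = 0.410). The ratio of COL4A2 to COL4A1 stayed between 2.05 and 2.22 over the 4 libraries.

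COL4A1 and COL4A2 are read in opposite directions from RefSeq start sites 126 bases apart. The bases between the starts are shown because they lie before both of them. They lie on chromosome 13 from 110307158 to 110307283 in GRCh38 and are written on the plus strand, on which COL4A2 is read. Capitals mark a CCAAT box and a GC box.
COL4A1 and COL4A2: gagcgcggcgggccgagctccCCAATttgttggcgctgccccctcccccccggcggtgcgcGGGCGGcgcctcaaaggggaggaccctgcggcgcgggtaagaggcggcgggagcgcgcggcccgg
Over 126 bases before the start, CCAAT was found in 21.1% and GGGCGG in 34.6% of all RefSeq starts, on either strand. The starts of COL4A3 and COL4A4 on chromosome 2 are 418 bases apart and the nearest starts of COL4A5 and COL4A6 on chromosome X 379 bases.

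The 4 minor type IV chains had differences below 0, and none was called. COL4A5 stood at 11.2 and 10.4 FPKM in sh_NC and at 9.34 and 9.05 FPKM in sh_SKA3 (-0.20 ± 0.07, limma adjusted p = 0.125). COL4A4 stood at 6.0 and 6.26 FPKM in sh_NC and at 4.48 and 4.98 FPKM in sh_SKA3 (-0.32 ± 0.08, limma adjusted p = 0.0690). In both genes the 2 groups did not overlap. COL4A3 averaged 2.50 FPKM and COL4A6 1.32 FPKM, with differences of -0.14 and -0.06. Within the pairs, COL4A5 stood between 6.94 and 8.0 times the level of COL4A6, and COL4A4 between 1.95 and 2.35 times that of COL4A3. The 6 genes summed to 148 and 151 FPKM in sh_NC and 150 and 163 FPKM in sh_SKA3.

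COL15A1 was the only called collagen. It encodes a multiplexin, a collagen with heparan or chondroitin sulfate chains that lies beside basement membranes. It fell from 32.8 and 36.3 FPKM in sh_NC to 21.3 and 23.5 FPKM in sh_SKA3, on 2608, 2174, 1441 and 1842 reads. The means were 34.6 ± 2.47 and 22.4 ± 1.56 FPKM (SD, n = 2), and the difference was -0.60 ± 0.08 (SE, limma adjusted p = 0.0202). COL18A1, the other multiplexin and the source of endostatin, averaged 4.22 FPKM with a difference of 0.14 ± 0.08 (limma adjusted p = 0.304).

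The stretch before the COL15A1 start is on chromosome 9 from 98943657 to 98943906 in GRCh38 (plus strand), shown as that of the called collagen with its GC box in capitals.
COL15A1: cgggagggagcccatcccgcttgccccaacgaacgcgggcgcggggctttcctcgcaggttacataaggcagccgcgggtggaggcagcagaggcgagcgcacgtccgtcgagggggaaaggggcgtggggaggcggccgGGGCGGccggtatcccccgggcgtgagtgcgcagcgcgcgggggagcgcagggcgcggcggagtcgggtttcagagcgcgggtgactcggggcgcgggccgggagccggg
It held a single GC box and neither of the other motifs. A match in any of these stretches describes the letters and is not evidence that a factor binds there.

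Other collagens were high without being called. COL5A1, the chain that starts collagen fibrils, stood at 67.1 and 75.4 FPKM in sh_NC and at 60.4 and 70.9 FPKM in sh_SKA3 (-0.12 ± 0.10, limma adjusted p = 0.481). COL7A1, the anchoring fibril collagen, stood at 62.2 and 69.9 FPKM in sh_NC and at 54.7 and 65.4 FPKM in sh_SKA3 (-0.14 ± 0.11, limma adjusted p = 0.435). In both genes replicate 2 was the higher of its group and the groups overlapped.

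COL9A3, a chain known from cartilage, stood at 32.5 and 34.8 FPKM in sh_NC and at 27.6 and 28.1 FPKM in sh_SKA3 (-0.26 ± 0.06, limma adjusted p = 0.0562). COL6A1 stood at 19.8 and 21.9 FPKM in sh_NC and at 15.5 and 18.1 FPKM in sh_SKA3 (-0.30 ± 0.10, limma adjusted p = 0.117). Both sets of libraries were apart, with sh_SKA3 lower, and neither gene passed the threshold. COL16A1 had the largest positive difference of the collagens, from 1.28 and 1.09 FPKM in sh_NC to 1.94 and 2.47 FPKM in sh_SKA3 (0.55 ± 0.15, limma adjusted p = 0.0750).

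Chains that share a trimer with these genes were at a small share of their level. COL5A2 averaged 0.159 FPKM, 0.232% of COL5A1, and COL5A3 0.147 FPKM. COL6A2 averaged 0.162 FPKM, 0.861% of COL6A1, and COL6A3 was at 0. COL9A2 averaged 1.65 FPKM, 5.36% of COL9A3, and COL9A1 was at 0. COL1A1 averaged 3.14 FPKM, and COL1A2 had a single read in all 4 libraries together. These gaps were in sh_NC and sh_SKA3 alike, so they were not differences between the groups. On the opposite strand, COL9A3 shares exon bases with TCFL5, LAMA5 with ADRM1, LAMB1 with DLD and ITGAE with HASPIN. COL15A1 shares them with the annotated gene AL136084.3, also on the opposite strand, and ITGA1 with PELO on the same strand. Whether the counting used strand is not given in the sources used here, so reads of these partners cannot be told apart. For ITGA1 and PELO, strand would not separate them.

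Beside ITGB4, the hemidesmosome and anchoring members ITGA6, LAMB3 and COL7A1 were tested on FPKM and not called. LAMA3 and COL17A1 averaged too low to be tested there. LAMA3 was called lower in the fit on recovered reads described below (-0.58, limma voom adjusted p = 0.0228). COL17A1 averaged 0.178 FPKM on 16, 16, 7 and 9 reads. Of 8 further genes listed as hemidesmosome and anchoring partners, 4 were tested and none was called. PLEC, the gene of plectin, stood at 46.3 and 52.1 FPKM in sh_NC and at 44.3 and 51.0 FPKM in sh_SKA3 (-0.05, limma adjusted p = 0.777), and DST, the gene of dystonin, at 4.27 and 3.97 FPKM and at 5.10 and 5.20 FPKM (0.26, limma adjusted p = 0.0921). KRT5 and KRT14, which hemidesmosomes bind in basal cells, were at or near 0.

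A list of 31 genes of cell-matrix adhesion held adaptors between integrins and actin, and surface partners of integrins such as tetraspanins, CSPG4 and NRP1. Of the 29 tested, 8 rose, 3 fell and 18 were not called, with a median difference of 0.17. This was 27.6% higher and 10.3% lower, beside 6.16% and 6.11% of all genes tested. The list was chosen with earlier results of these data known, and its shares were not adjusted for level. The median of the mean FPKM was 16.2 over its tested genes and 6.43 over all genes tested. The part of either in the shares was not tested. The genes that rose included filamin A (FLNA), an actin cross-linker that binds integrin tails, at 280 and 311 FPKM in sh_NC and 414 and 450 FPKM in sh_SKA3 (0.55 ± 0.08, limma adjusted p = 0.0212). They also included ACTN4, an alpha-actinin, at 170 and 183 FPKM against 241 and 257 FPKM (0.49 ± 0.07, limma adjusted p = 0.0198), and caveolin-1 (CAV1), at 26.3 and 24.3 FPKM against 37.7 and 38.1 FPKM (0.57 ± 0.06, limma adjusted p = 0.0149). ZYX, ACTN1, TNS3 and RSU1 rose as well, by 0.64, 0.55, 0.51 and 0.42.

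The genes of this list that fell were the surface proteoglycan CSPG4 (-0.51 ± 0.09), the adaptor LPP (-0.40 ± 0.08) and the tetraspanin CD63 (-0.29 ± 0.06), with limma adjusted p of 0.0287, 0.0439 and 0.0388. Talin (TLN1), vinculin (VCL), paxillin (PXN) and focal adhesion kinase (PTK2) had differences from 0.11 to 0.34 and were not called. ILK averaged under 1 FPKM and was not tested.

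Of 31 collagen-modifying genes in the table, 23 were tested, none rose, 2 fell and the median difference was -0.02. The called share was 8.70%, below the 12.3% of all genes tested. P4HA1 and P4HA3 encode catalytic subunits of prolyl 4-hydroxylase, which stabilizes the collagen helix. P4HA3 stood at 12.0 and 11.4 FPKM in sh_NC and at 4.12 and 4.72 FPKM in sh_SKA3 (-1.23 ± 0.09, limma adjusted p = 0.00806). P4HA1 stood at 63.6 and 58.0 FPKM in sh_NC and at 24.9 and 36.3 FPKM in sh_SKA3 (-0.99 ± 0.18, limma adjusted p = 0.0330). The collagen chaperone SERPINH1 and the beta subunit P4HB were not called, with differences of 0.13 and -0.10.

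Among 22 tested matrix genes outside the 3 families, 4 rose and 1 fell, or 22.7% beside 12.3% of all genes tested. This list too was chosen with earlier results known, and its share was not adjusted for level. EFEMP1, a fibulin, stood at 28.2 and 26.1 FPKM in sh_NC and at 68.3 and 57.9 FPKM in sh_SKA3 (1.18 ± 0.10, limma adjusted p = 0.00932). NTN4, a netrin that binds laminin gamma chains, stood at 4.53 and 4.10 FPKM and at 10.2 and 10.5 FPKM (1.10 ± 0.08, limma adjusted p = 0.00806). CCN1, an integrin ligand, and BCAM, a laminin receptor outside the integrins, rose by 1.02 and 0.47. Syndecan-1 (SDC1), a heparan sulfate proteoglycan, fell from 49.6 and 55.6 FPKM to 19.2 and 20.3 FPKM (-1.37 ± 0.08, limma adjusted p = 0.0065). Fibronectin (FN1), the ligand of ITGA5, was low at 0.512 and 0.621 FPKM in sh_NC and 1.39 and 1.51 FPKM in sh_SKA3 (0.65, limma adjusted p = 0.0672), and SPARC was at 0.

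Markers of other cell types were read beside these results. The 9 fibroblast markers in the table summed to 13.2 and 13.3 FPKM in sh_NC and to 8.73 and 10.1 FPKM in sh_SKA3, led by DCN, which fell (-1.46 ± 0.07, limma adjusted p = 0.0065). The other 8 together summed to 4.85 and 4.90 FPKM in sh_NC and to 6.25 and 7.77 FPKM in sh_SKA3. PDGFRB, TAGLN, MFAP5, DPT and FAP were each higher in both sh_SKA3 libraries, LUM and THY1 were lower in both, and ACTA2 overlapped. Of these 8, PDGFRB and TAGLN were tested on FPKM and not called, and the rest were too low to be tested. In the alternatives with 4 libraries, PDGFRB passed in 2 of 10 and MFAP5 in 1 of 2. The collagens of stroma were uneven, with COL1A2 and COL3A1 below 1 FPKM and COL5A1 and COL6A1 at the levels given above. The 6 endothelial markers summed to 29 and 29.3 FPKM in sh_NC and to 41.0 and 44.0 FPKM in sh_SKA3. ESAM, at 28.6 and 29 against 40.8 and 43.7 FPKM, made up nearly all of it, whereas CDH5 and VWF did not pass 0.1 FPKM and TIE1 was at 0. The part of these genes in the results was not tested.

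Replicate 2 of both groups held more signal from GC-rich genes, which include many members. Among the 14 tested members with at least 60% GC in their exons, the median of replicate 2 minus replicate 1 was 0.15 in sh_NC and 0.13 in sh_SKA3, and 10 of the 14 were higher in replicate 2 of both groups. Among the 11 members below 50% GC the medians were -0.05 and -0.02. Over all 1788 tested genes with at least 60% GC the medians were 0.13 and 0.08. A correction of each library for GC content and exon length, chosen after seeing the data, left all 5 calls in place and called 6 more members, all lower in sh_SKA3. COL7A1 was one of them (-0.29, limma adjusted p = 0.0288, against 0.0288 to 0.586 over its alternatives with 4 libraries). LAMA5, at 66.4% GC, moved from 0.26 to 0.08. The direction of COL4A2 flipped from 0.09 to -0.06, as did those of COL18A1 and LAMC3.

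**Figure D4:**
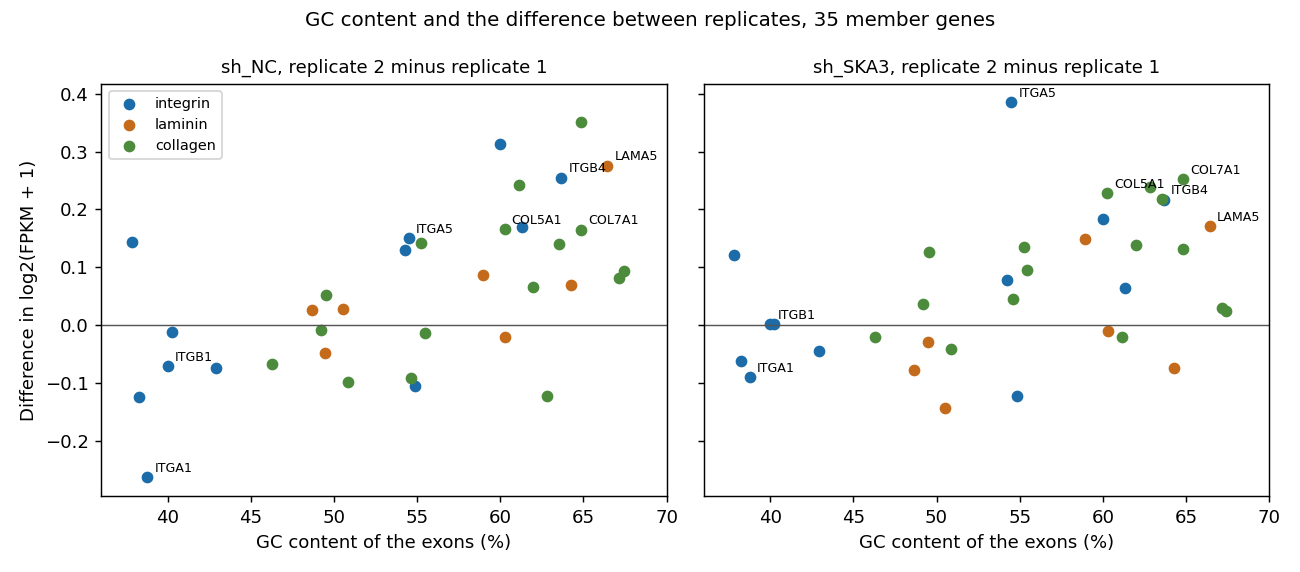
Difference in log2(FPKM + 1) between replicate 2 and replicate 1 against the GC content of the exons (%), for the 35 tested members in sh_NC (left) and sh_SKA3 (right), coloured by family. LAMA5, COL7A1, COL5A1 and ITGB4 lie above 0 in both panels and ITGA1 lies below 0 in both.

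On the recovered reads, limma voom over the genes averaging 10 reads or more tested 48 members and placed 22 past the threshold, 11 higher and 11 lower. This was 45.8% of them, beside 24.0% of all genes so tested. These shares were not adjusted for level or read number. In the FPKM test, the median of the mean FPKM was 12.5 over the tested members and 6.43 over all genes tested. The part of this in the shares was not tested. All 5 genes called on FPKM were among them. The 22 included 3 members below a mean of 1 FPKM, LAMA3, COL3A1 and COL25A1, all lower in sh_SKA3. ITGB8 was called there (0.73, limma voom adjusted p = 0.00186, with 0.00154 to 0.337 over its alternatives with 4 libraries), as were LAMA1, COL16A1 and COL4A4.

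All 5 member calls rested on having both replicates of each group. Without any single library none of them passed, with limma adjusted p between 0.0525 and 0.0695 for ITGB4 and between 0.124 and 0.206 for LAMC1, the weakest of them. Each gene kept its direction. SKA3 itself went as high as 0.0660 in these fits. The adhesion list had 0 calls without any single library, and the collagen-modifying and other matrix genes had 0 without sh_NC 1 or without sh_NC 2. Over all genes, these fits called from 0 to 135 lower and from 0 to 46 higher.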

How the data were processed

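RNA was taken from TU-177 cells carrying a lentiviral hairpin against SKA3 or a control hairpin, 2 libraries each. The authors deposited FPKM per gene by Ensembl identifier. Per the labels, the submitters' processing notes name HISAT2, Bowtie2 2.2.8, StringTie 1.3.1, Cuffdiff 2.1.1 and hg19. The role of each tool, the annotation and the use of strand are not given in the sources used here. The labels and the supplementary methods name different suppliers of the line.

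Symbols, exon lengths and positions came from GENCODE v29 (GRCh38), another build than the files', by Ensembl identifier. The members and gene lists were chosen with earlier results of these data known. limma 3.58.1 (R 4.3.3; lmFit, eBayes with a mean-variance trend) was run on log2(FPKM + 1), two-sided, with Benjamini-Hochberg adjustment over all genes averaging 1 FPKM or more. FPKM times exon length times library size gave whole reads (within 0.02 of a whole number, or in whole proportions between libraries within 0.01) for 97.6% of genes above 0 and all 73 members above 0. Library sizes recovered this way were 11966130, 9015056, 10177854 and 11793604, and their number of reads limits the precision of low genes. Reads summed over genes came to between 109% and 111% of these sizes, and the reason was not tested. Such reads went to limma voom.

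Named genes were SKA3, called members, the highest 6 integrins, 4 laminins and 6 collagens, fixed chains of a laminin, type IV collagen and hemidesmosomes, beta partners of ITGAV, members at 0, and up to 8 called genes per list. Other members, CD63, LPP and the list genes not called were named after their values were seen. Fibroblast, endothelial, leukocyte, squamous epithelial and platelet markers were read as lists, and the 3 platelet markers in the table summed to between 1.63 and 1.98 FPKM. Promoter letters came from RefSeq (GRCh38.p14), which holds starts for 56 of the 78 members. Of the called members, those with exactly 1 start are shown. The steps were tested on simulated data of 12033 genes, of which 194 were changed 2-fold. There limma on log2(FPKM + 1) recovered 149 of the 194 with 20 false calls. With the GC and length correction it recovered 149 with 19 false calls, and limma voom recovered 190 with 9. The simulated reads had the same dispersion for every gene and no difference between replicates with GC content. They therefore cannot show how the correction does on these libraries. Python 3.11.15 with numpy 2.4.6, pandas 2.3.3 and matplotlib 3.10.9 did the rest. A member that this rule names is not reported here. Exons of 32 members overlap those of another annotated gene.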

Additional observations from a re-analysis of the deposited data

How the results depend on the processing

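All alternatives used the same 4 libraries unless one was left out. Over all genes, 772 were lower and 779 higher. These became 81 and 48 without a filter on low values, 381 and 312 by eBayes without a trend, 1514 and 1694 by limma voom, 1627 and 1745 by limma voom from 10 reads, and 1243 and 1310 with the GC and length correction. With each library left out they ran from 0 to 135 lower and from 0 to 46 higher, with 0 called without sh_NC replicate 1 and without sh_NC replicate 2.

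Of the members, 2 were lower and 3 higher. Lower members became 0 without a filter, 1 without a trend, 4 from a mean FPKM of 5, 8 by limma voom, 11 by limma voom from 10 reads and 8 with the GC and length correction. Higher members became 0 without a filter, 2 without a trend, where ITGB5 was lost, and 11 by either limma voom fit. From a mean FPKM of 5 they stayed at 3, with ITGA3 called and ITGA2 too low to be tested. Without any single library no member was called by limma, where 17 of the 35 had an unadjusted p below 0.05 in the fit of 4 libraries. With the replicate number as a replicate block, 4 members were lower and 4 higher, adding COL6A1, COL9A3 and LAMA5 to the 5. Adhesion genes past the threshold became 0 without a filter, 4 without a trend, 18 by limma voom and 19 from 10 reads. Hemidesmosome partners went from 0 to 1 by both limma voom fits and with the GC and length correction. Collagen-modifying genes went from 2 to 1 without a filter, without a trend and by robust eBayes, to 5 from a mean FPKM of 5, 4 with the replicate block, 7 by limma voom, 6 from 10 reads and 8 with the GC and length correction. Other matrix genes went from 5 to 3 without a filter, 9 with the replicate block, 11 by both limma voom fits and 9 with the GC and length correction. With each library left out, adhesion genes and hemidesmosome partners had 0 calls, collagen-modifying genes from 0 to 2 and other matrix genes from 0 to 4, with 0 in all lists without either sh_NC library.

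The labels do not say that a replicate number marks a shared culture, so the numbers were not taken to pair the samples in the main fit. Deviations of same-numbered libraries from their group means correlated at 0.0973 over genes. Same-numbered libraries did share a shift with GC content, as given above. Signs flipped with the GC and length correction for COL18A1 (-0.0082), COL4A2 (-0.061) and LAMC3 (-0.074), for ITGA5 without sh_SKA3 replicate 1 (0.017, against a lowest value of -0.37 with another library left out) and for ITGAV without sh_NC replicate 2 (-0.0029, against a highest value of 0.12). None of these was called. Median-of-ratios scaling, quantile normalization and a pseudocount of 0.1 moved no member across the threshold. The cause of the other changes was not tested. The FPKM test left out genes below a mean of 1 FPKM, and limma voom from 10 reads called LAMA3, COL3A1 and COL25A1 among them.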

Other observations

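Some members below a mean of 1 FPKM, which the FPKM test left out, did not overlap between the groups, in either direction. Most of them did overlap. LAMA3 and COL17A1 were among those without overlap, and COL3A1, COL25A1 and LAMA4 are given as examples. Of all genes tested, which averaged 1 FPKM or more, 61.6% did not overlap. The share over all genes below 1 FPKM was not taken, so no result is read from this separation. COL3A1, a fibrillar collagen of soft tissue, had 65 and 47 reads in sh_NC and 33 and 29 in sh_SKA3. COL25A1, a transmembrane collagen, had 32 and 25 reads in sh_NC and 16 and 13 in sh_SKA3. LAMA4 had 1 and 3 reads in sh_NC and 11 and 15 in sh_SKA3. COL26A1 had 28 reads in sh_NC 2 and 16 or 17 in the other 3 libraries, so its groups overlapped.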
